A study of Mus musculus with 11 samples.

Results

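The smooth muscle type contractile genes were 10 genes, Acta2, Actg2, Cnn1, Cnn2, Tagln, Cald1, Tpm1, Tpm2, Myl9 and Myh11, out of 20284 genes named on the array. They were selected on the ground that several of them had differed between otospheres and the other groups in these same arrays, so the group differences given for them are descriptions and carry no p-value. A gene was represented by every probe whose transcript accession maps to its symbol, 17 probes in all, and the brightest one served as its main probe. All 17 probes passed the filter on dim probes, which a probe passed through any 2 arrays. In the comparison of otospheres with the cochlear sensory epithelium (CSE), 7 of the 10 genes were higher in every otosphere sample than in every CSE sample, an order that 10.8% of all probes showed and that chose the genes in part. They were Tagln, Cnn1, Acta2, Tpm2, Cnn2, Cald1 and Myh11. Tagln, Cnn1 and Acta2 had mean differences of 6.21, 5.95 and 5.64 on the log2 scale, with Cnn1 above background on only 1 of 3 CSE arrays. Myh11 was near background in all groups. Actg2, Myl9 and the main probe of Tpm1 overlapped between these groups.

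Cy3-labelled RNA was measured on 11 single-colour arrays. The otosphere group (OS1 to OS6) consisted of floating spheres grown from dissociated cochlear cells of ICR mice at postnatal day 1. They were cultured in suspension with bFGF (10 ng/ml) and IGF1 (50 ng/ml) for 4 to 5 days as primary spheres. They were then passaged once, cultured for another 4 to 5 days and strained for RNA as solid secondary spheres. The CSE group (CSE1 to CSE3) was the uncultured epithelium of mice of the same age. Each preparation pooled 20 cochleae, so neither group resolves single animals. The embryonic stem cell (ESC) group had 1 array of line G4-2 (ES1) and 1 of line D3 (ES2), both grown without feeder cells with LIF and 10% fetal bovine serum at passage 13. Slide 1 held ES1, OS1 to OS3, CSE1 and CSE2, and slide 2 held ES2, OS4 to OS6 and CSE3, so the ESC line and the slide cannot be told apart. OS1 with OS2, and OS4 with OS5, differed by about the noise between repeated spots or less (ratios of 0.885 and 0.394 by the median absolute deviation and 1.08 and 0.472 by the SD, against at least 1.66 and 1.93 for every other pair within a group), and each pair was counted as 1 sample. This left 4 otosphere, 3 CSE and 2 ESC samples, and nothing in the labels says that the samples of a group came from separate cultures, so their spread may be partly technical. Between 55.1% and 71.6% of the spots were well above background on each array, and no spot was saturated. The ESC marker Pou5f1 had a mean log2 signal of 14.22 in ESCs and of 5.44 in otospheres, whereas the hair cell marker Myo7a had means of 10.55 in CSE and 8.05 in otospheres. Of 8 ESC markers, 7 were lower in otospheres than in ESCs at a limma adjusted p under 0.05, as were 15.6% of all probes. The brightest probe of the remaining marker, Nanog, went the other way without passing, with means of 8.44 in ESCs and 9.89 in otospheres. Other Nanog probes were not used here. The paper lists Nanog among the genes upregulated only in ESCs, so this probe may not reflect Nanog RNA.

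Contractile cells shorten when myosin pulls on actin filaments. In smooth muscle, the actins encoded by Acta2 and Actg2 form the thin filaments, tropomyosins lie along them, and calponin (Cnn1), caldesmon (Cald1) and transgelin (Tagln) bind them, while Myh11 encodes the smooth muscle myosin heavy chain and Myl9 a regulatory light chain that is phosphorylated to start contraction. Many of these genes carry CArG boxes, to which serum response factor (SRF) binds together with myocardin or the myocardin-related transcription factors. Acta2, Tagln and Cnn1 are also made by myofibroblasts, pericytes and spread cells in culture, so these genes are not private to muscle, whereas Myh11 is the most restricted of them.

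The promoters are shown because CArG boxes are known regulatory elements of smooth muscle genes, and only some of these windows hold one. RefSeq promoters (GRCm38.p6) from 250 bases before to 50 bases after the start site of each entry were found for 7 of the 10 members. There were 8 promoters in all, and Tagln, Actg2 and Myh11 had no entry. This start need not be the outer end of the gene, and the Acta2 window lies inside the span given for Acta2 below. The sequences below run 5′ to 3′ over the 180 bases that end just before the start. They lie at chr19:34255374-34255553 on the minus strand for Acta2, chr10:79988420-79988599 on the plus strand for Cnn2, chr2:156775284-156775463 on the plus strand for Myl9 and chr9:22099073-22099252 on the plus strand for Cnn1. Capitals mark CArG boxes, CArG-like matches and the MCAT motif, CATTCC, on either strand.
Acta2: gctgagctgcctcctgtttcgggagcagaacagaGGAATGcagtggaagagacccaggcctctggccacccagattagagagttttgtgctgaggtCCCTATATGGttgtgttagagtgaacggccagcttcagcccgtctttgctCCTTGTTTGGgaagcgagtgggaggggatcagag
Cnn2: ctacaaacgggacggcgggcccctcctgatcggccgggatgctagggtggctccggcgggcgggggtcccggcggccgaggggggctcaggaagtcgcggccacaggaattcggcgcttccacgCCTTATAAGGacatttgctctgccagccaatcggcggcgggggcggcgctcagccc
Myl9: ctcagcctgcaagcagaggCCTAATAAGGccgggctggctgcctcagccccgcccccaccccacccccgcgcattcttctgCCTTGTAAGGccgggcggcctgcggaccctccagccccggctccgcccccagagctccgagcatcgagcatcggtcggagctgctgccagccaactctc
Cnn1: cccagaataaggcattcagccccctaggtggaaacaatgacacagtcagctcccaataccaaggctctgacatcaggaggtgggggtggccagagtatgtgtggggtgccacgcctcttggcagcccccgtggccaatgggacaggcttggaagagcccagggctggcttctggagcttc

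A CArG box, whose motif reads alike on both strands, stood in the promoters of 2 of the 7 members, Cnn2 (first base at -56 from the start) and Myl9 (at -161). CArG-like matches, with 1 G or C allowed in the central stretch of A and T, stood at -84 and -34 in Acta2 and at -99 in Myl9. A CArG box was present in 1.63% of all 32851 RefSeq promoters, and a box or a CArG-like match in 9.98%. MCAT matches, searched on both strands, were found for 3 members, Acta2, Cald1 and Tpm1, and in 14.7% of all promoters. No CArG box or CArG-like match was found in the windows of Cnn1, Cald1, Tpm1 and Tpm2. A match here describes letters in a window and no binding was measured. The members with such a match had unlike differences on the arrays. Acta2 differed between otospheres and CSE by 5.64, Cnn2 by 3.08 and Myl9 by 0.71 on the log2 scale. Cnn1, with none in its window, differed by 5.95. Sequence outside the windows was not searched, and a link between matches and differences was not tested.

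All signals below are log2 intensities after background correction and quantile normalization over the 11 arrays, and errors of group means are SD over samples. Levels of different genes come from different probes and are not compared with each other. The arrays measured bulk RNA, so more cells of one kind and more RNA per cell cannot be told apart.

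**Figure D1:**
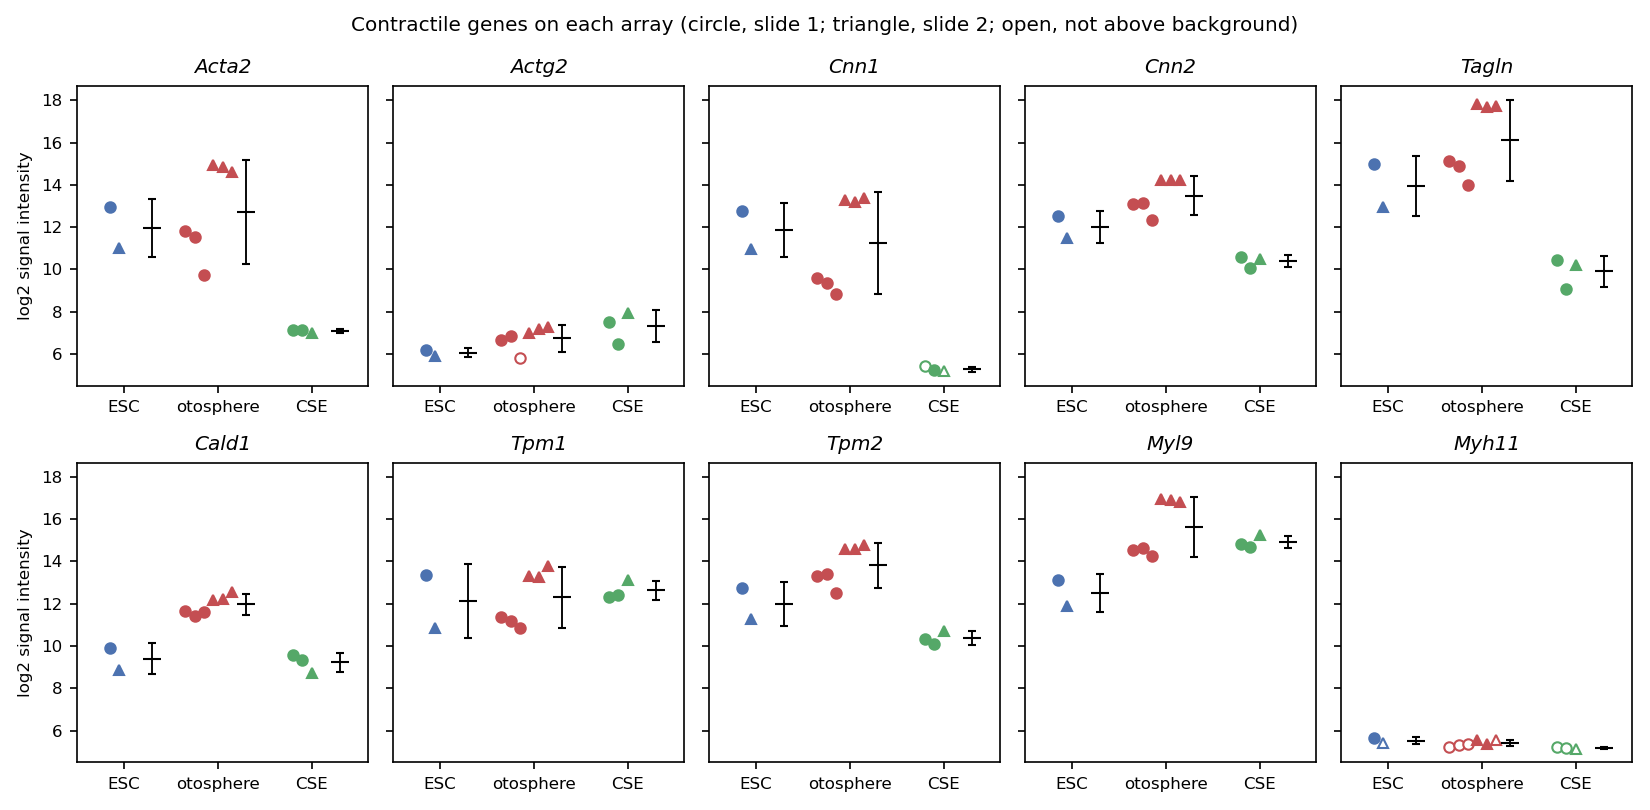
Log2 signal intensity of the main probe of each of the 10 genes on every array of ESCs, otospheres and CSE. Circles are slide 1, triangles slide 2, open symbols arrays where the probe was not well above background, and black bars the mean and SD over samples. In every panel the 3 otosphere arrays of slide 2 lie above the 3 of slide 1.

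Of the thin filament actins, Acta2 (chromosome 19, 34240336 to 34255585 in GRCm38.p6) had log2 signals of 11.67, 9.73, 14.90 and 14.60 in the otosphere samples OS1/OS2, OS3, OS4/OS5 and OS6. In CSE it had 7.12, 7.15 and 6.99, and in the ESC lines 12.95 and 10.999. Every otosphere and ESC sample therefore lay above every CSE sample, while otospheres and ESCs overlapped. The otosphere mean was 12.72 ± 2.47 (SD, n = 4) against 7.09 ± 0.09 (n = 3) in CSE, a difference of 5.64 (SE 1.17), or 49.8-fold. CSE minus ESCs was -4.89 (SE 1.395). The probe of Acta2 was printed at 10 spots, and on each array these differed by an SD of 0.103 to 0.229.

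In the authors' table of log2 values, Acta2 had means of 1.24 in otospheres, 0.687 in CSE and 1.18 in ESCs, a difference between otospheres and CSE of only 0.556. Over the 359 kept probes with 10 spots, the scanner value was a median of 10.1 times the value in the table, whereas over 43256 probes with 1 spot the ratio was 1.03. Multiplied by the number of spots, the difference of Acta2 in the table was 5.56.

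Actg2, the enteric smooth muscle actin, did not follow Acta2. Its log2 signals were 6.75, 5.83, 7.08 and 7.27 in the otosphere samples, 7.53, 6.47 and 7.95 in CSE, and 6.21 and 5.92 in ESCs. Otospheres overlapped with both other groups, with differences of -0.58 (SE 0.42) from CSE and 0.67 (SE 0.48) from ESCs. All signals were low, and the probe was well above background on 5 of the 6 otosphere arrays. The probe sequences were not used here, so hybridization between the closely related actins was not tested.

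The calponins and transgelin bind actin filaments. Cnn1 had log2 signals of 9.48, 8.85, 13.24 and 13.39 in the otosphere samples and 12.78 and 10.97 in ESCs. In CSE it stood at 5.42, 5.25 and 5.19 and was well above background on 1 of 3 arrays. Cnn1 was thus bright in both cultured cell types and at the edge of detection in the tissue. Otospheres were above CSE by 5.95 (SE 1.13) and CSE minus ESCs was -6.59 (SE 1.36). With CSE at the floor the size of these differences depends on the background correction, and otospheres minus CSE was 5.09 with an offset of 50, 6.70 with an offset of 0 and 7.99 with scaling to the 75th percentile. Otospheres and ESCs overlapped, with a difference of -0.63 (SE 1.29).

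Tagln was well above background on every array. Its log2 signals were 15.00, 13.99, 17.77 and 17.71 in the otosphere samples, 10.46, 9.08 and 10.19 in CSE, and 14.97 and 12.94 in ESCs. Every otosphere sample lay above every CSE sample, with a mean difference of 6.21 (SE 0.98, 73.9-fold). ESCs also lay above CSE in both samples. OS3 fell between the ESC lines and OS1/OS2 stood level with ES1.

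Cnn2, the more widely expressed calponin, showed the same order with smaller steps. It had log2 signals of 13.13, 12.33, 14.23 and 14.23 in the otosphere samples, 10.61, 10.08 and 10.50 in CSE, and 12.54 and 11.49 in ESCs. The difference between otospheres and CSE was 3.08 (SE 0.48) at the main probe and 2.67 (SE 0.45) at the second probe.

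Cald1 differed from the other actin-binding members in that all its otosphere samples lay above all samples of both other groups. Its log2 signals were 11.54, 11.61, 12.19 and 12.55 in the otosphere samples, 9.58, 9.33 and 8.74 in CSE, and 9.92 and 8.88 in ESCs. No sample of the other groups reached the otospheres, whereas CSE and ESCs overlapped. The differences were 2.75 from CSE (SE 0.35) and 2.57 from ESCs (SE 0.40), and the second probe gave 2.91 and 2.52.

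The tropomyosins stabilize the thin filament and exist as many splice forms. Tpm2 had log2 signals of 13.35, 12.50, 14.59 and 14.79 in the otosphere samples, 10.31, 10.08 and 10.71 in CSE, and 12.74 and 11.26 in ESCs. All otosphere samples were above CSE, by 3.44 on average (SE 0.58) and by 3.49 (SE 0.73) at the second probe. OS3 lay within the range of the ESC lines.

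The 5 probes of Tpm1 disagreed. The main probe had log2 signals of 11.27, 10.87, 13.29 and 13.77 in the otosphere samples, 12.33, 12.42 and 13.13 in CSE, and 13.36 and 10.87 in ESCs. The CSE samples therefore lay between the otospheres of the 2 slides, and the mean difference was -0.33 (SE 0.81). A second probe to the same transcript gave -0.31 (SE 0.76), and a probe to another transcript -0.22 (SE 0.22). The remaining pair, to 2 further transcripts, showed every otosphere sample above every CSE sample, with differences of 2.72 (SE 0.42) and 1.66 (SE 0.54). The mean over all 5 probes gave 0.70, so the sign for Tpm1 depended on the probe. The splice form that each probe detects was not examined.

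**Figure D2:**
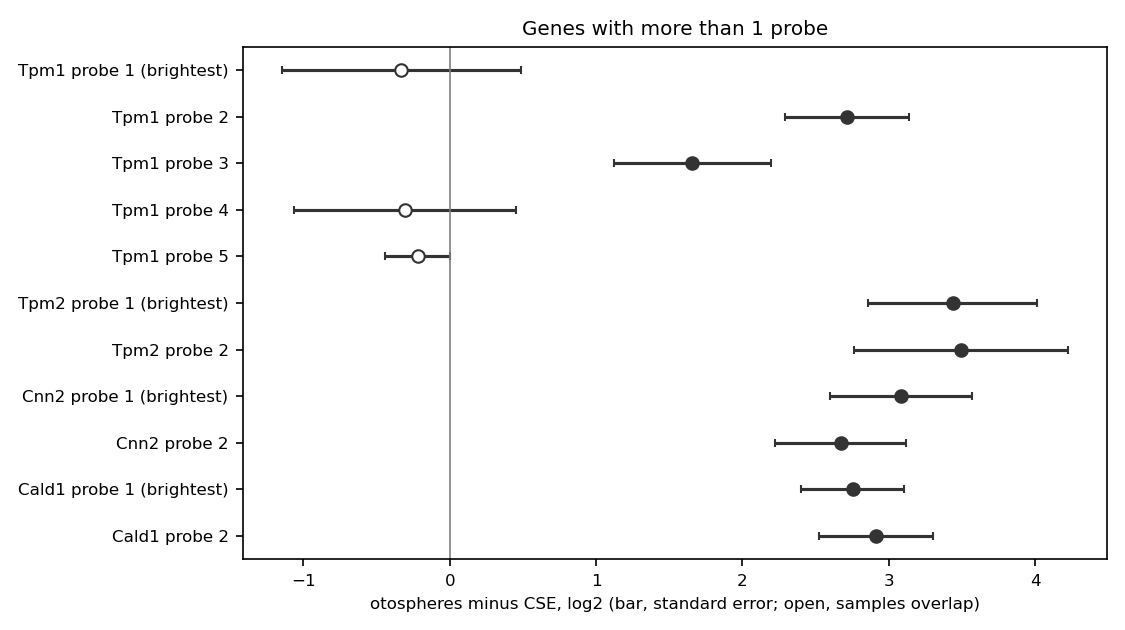
Difference between otospheres and CSE (log2, bar for the SE) at each probe of the 4 genes with more than 1 probe, filled where the samples of both groups do not overlap. The probes of Tpm2, Cnn2 and Cald1 lie close together, between 2.67 and 3.49, whereas those of Tpm1 spread from -0.33 to 2.72.

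Of the myosin subunits, Myl9 was bright in the tissue itself. Its log2 signals were 14.58, 14.24, 16.92 and 16.81 in the otosphere samples, 14.85, 14.67 and 15.25 in CSE, and 13.14 and 11.87 in ESCs. The first otosphere pair lay below all CSE samples and the other pair above them, so the mean difference of 0.71 (SE 0.70) did not separate the groups. Both otospheres and CSE were above ESCs in all samples, by 3.13 (SE 0.79) and 2.42 (SE 0.83).

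Myh11 stayed near the background in all groups. It had log2 signals between 5.26 and 5.56 in the otosphere samples, between 5.14 and 5.20 in CSE, and of 5.62 and 5.39 in ESCs. The probe was well above background on 2 of 6 otosphere arrays, 0 of 3 CSE arrays and 1 of 2 ESC arrays. The group means of otospheres and CSE differed by 0.25 (SE 0.15), at a level where the probe was mostly not above background, so no fold is given.

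**Figure D3:**
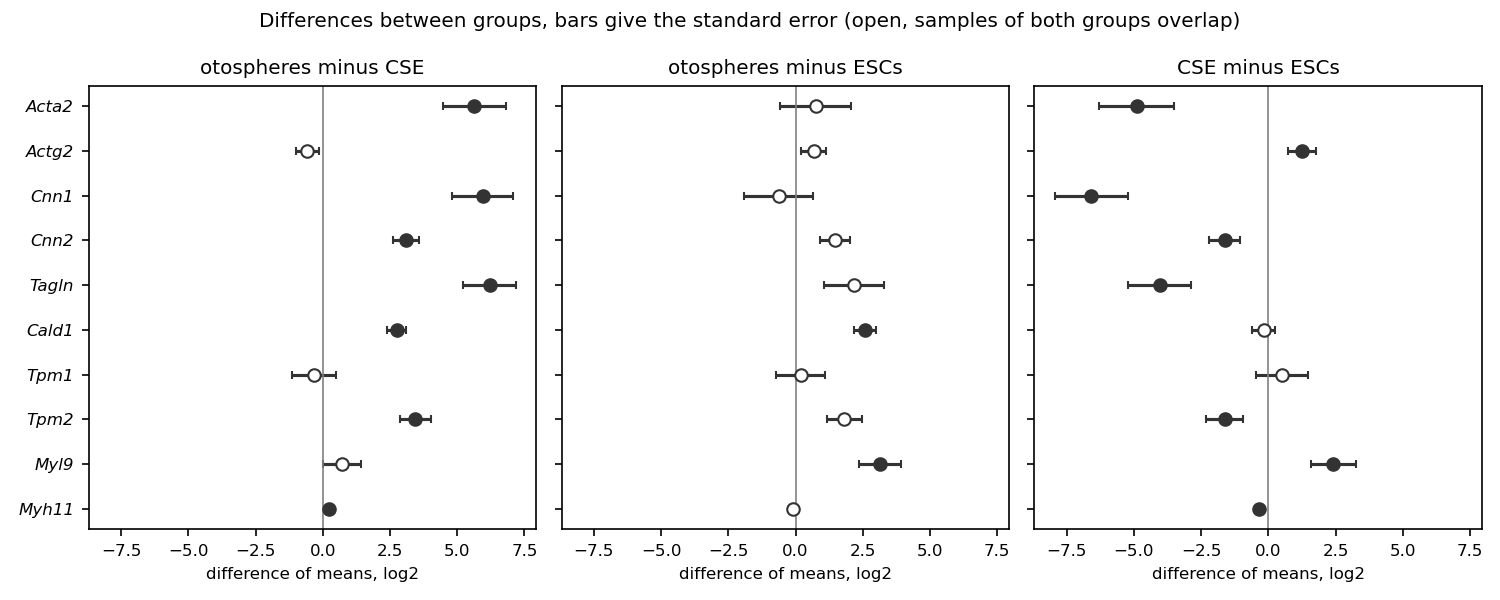
Difference of group means for the 10 genes in each of the 3 comparisons (log2, bar for the SE), filled where the samples of both groups do not overlap. In otospheres minus CSE, 7 genes are filled and all to the right of 0. In CSE minus ESCs, Acta2, Cnn1 and Tagln lie farthest to the left, at -4.89, -6.59 and -4.05.

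Over the 10 genes, the median difference between otospheres and CSE was 2.92, beside 0.02 over all 47996 kept probes. All otosphere samples lay above all CSE samples for 7 genes and below for none, and over all probes this held for 10.8% and 12.7%. Since the genes were picked from such differences, nothing is read from these counts. Against ESCs, the median of the 10 genes was 1.11 for otospheres, beside -0.03 over all probes. Otospheres lay wholly above ESCs for Myl9 and Cald1 alone, and below for none, with 20.7% and 25.4% of all probes in these classes. CSE lay wholly above ESCs for Actg2 and Myl9 and below for 6 genes, Acta2, Cnn1, Cnn2, Tagln, Tpm2 and Myh11, with 23.7% and 28.5% of all probes. The median for CSE minus ESCs was -0.98, beside -0.06 over all probes. These comparisons share samples and are not independent of each other. Scaling the arrays to their 75th percentile instead moved the median of all probes to -0.28 for otospheres minus ESCs and -0.25 for CSE minus ESCs. Relative to it, the median of the 10 genes was 1.11 and -1.27, against 1.14 and -0.92 with quantile normalization. The small differences of Tpm1 from ESCs, 0.18 in otospheres and 0.51 in CSE, changed sign under this scaling, and that of Cald1 between CSE and ESCs, -0.18, did so under cyclic loess.

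The otosphere samples were far from uniform in these genes. For all 10 genes, both otosphere samples of slide 2 (OS4/OS5 and OS6) lay above both of slide 1 (OS1/OS2 and OS3), an order that 27.8% of all probes showed. The differences between the slides were 4.15 for Cnn1, 4.05 for Acta2, 3.24 for Tagln, 2.46 for Myl9 and for Tpm1, 1.76 for Tpm2, 1.501 for Cnn2, 0.89 for Actg2, 0.80 for Cald1 and 0.21 for Myh11 on the log2 scale. Their median was 2.11, beside 0.05 over all probes, of which 0.398% differed by more than 2.11. OS3 was the lowest otosphere sample for 8 of the 10 genes, and the share of all probes lowest there was not worked out.

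CSE on slide 2 minus CSE on slide 1 was -0.15 for Acta2, -0.14 for Cnn1 and 0.42 for Tagln, and lay between -0.71 (Cald1) and 0.95 (Actg2) over the 10 genes. ES2 on slide 2 was lower than ES1 on slide 1 for each of the 10 genes, with differences of -1.95 for Acta2, -1.81 for Cnn1 and -2.03 for Tagln. The share of all probes lower in ES2 was not worked out, so nothing is read from this count. Otosphere preparation and slide cannot be told apart among the otospheres.

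Within each slide, otospheres stayed above CSE for the genes with a large difference, where CSE3 was the only CSE array of slide 2. Acta2 was higher by 3.56 on slide 1 and 7.76 on slide 2, Cnn1 by 3.83 and 8.12, and Tagln by 4.72 and 7.55. Cnn2 (2.38 and 3.73), Cald1 (2.12 and 3.63) and Tpm2 (2.73 and 3.97) also kept their direction. Myl9 was -0.35 on slide 1 and 1.61 on slide 2, and Tpm1 -1.31 and 0.40. Against ESCs, the sign differed between the slides for Acta2 (-2.25 and 3.75), Cnn1 (-3.61 and 2.35), Tagln (-0.47 and 4.798), Tpm1 (-2.29 and 2.65) and Myh11 (-0.32 and 0.13). Myh11 was near background. The only ESC array was ES1 on slide 1 and ES2, of another line, on slide 2. In these differences the ESC line, the slide and the otosphere preparation cannot be told apart. With the otospheres of slide 1 alone the median of the 10 genes against CSE was 2.34, and with those of slide 2 alone 3.49.

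**Figure D4:**
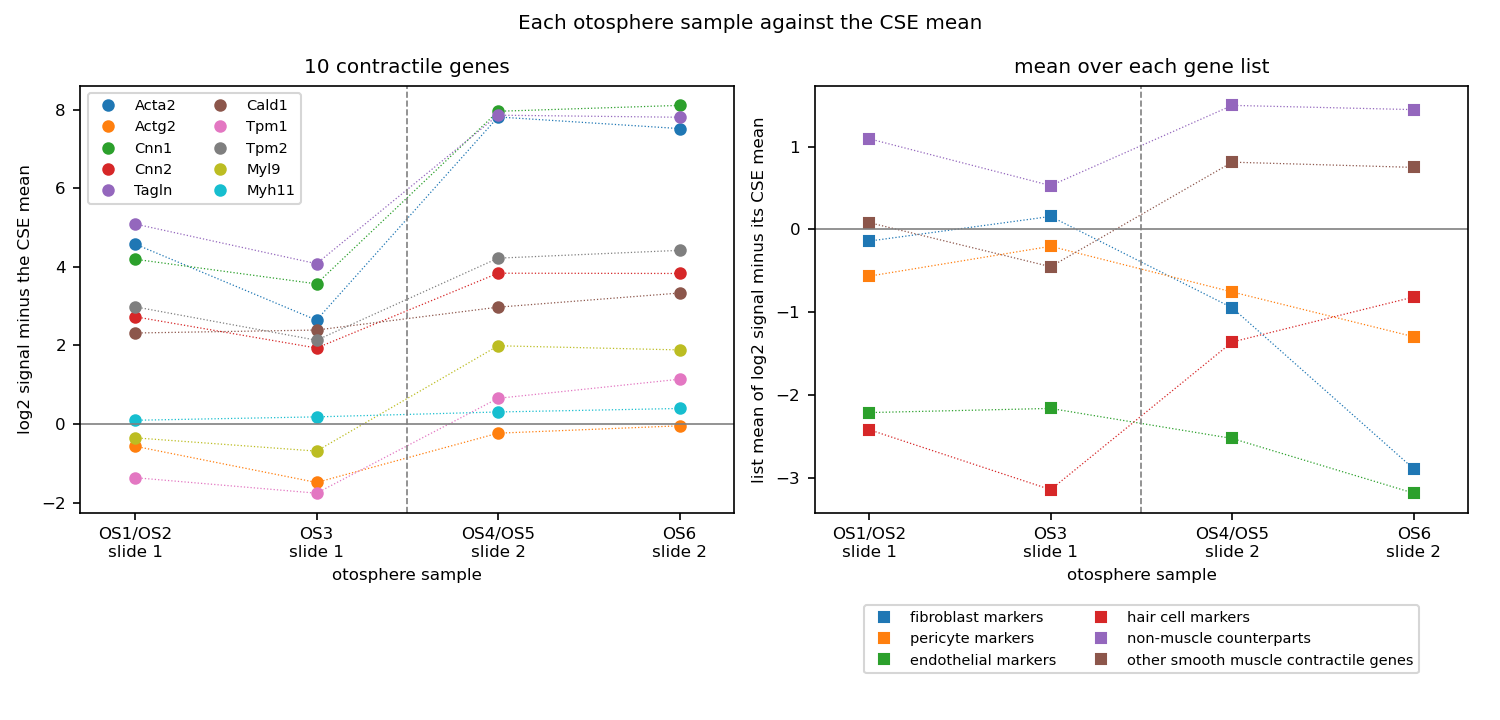
Each otosphere sample minus the CSE mean, for the 10 genes (left) and for the mean over 6 gene lists (right), on the log2 scale, with slide 1 and slide 2 on either side of the dashed line. The 10 genes are higher on slide 2, where the mean of the fibroblast markers drops, to 10.12 in OS6, and that of the hair cell markers is higher.

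Some markers of other cell types also differed between the otosphere samples of the slides. The mean log2 signal of 12 fibroblast markers was 12.88 and 13.17 in the otosphere samples of slide 1 and 12.07 and 10.12 in those of slide 2, with 12.79 to 13.24 in CSE. The mean of 10 pericyte markers was 8.99 and 9.35 on slide 1 and 8.80 and 8.26 on slide 2, so both list means were lower where the contractile genes were higher. Neither list moved as one. Of the 12 fibroblast markers, 8 were lower in both slide 2 samples and 3 (Thy1, Lum and Loxl1) were higher in both. Of the 10 pericyte markers, 3 (Rgs5, Anpep and Notch3) were higher in both and 4 were lower in both, with a median difference between the slides of -0.04. Over all probes, 27.8% were higher in both slide 2 samples, and the share lower in both was not worked out. All 8 hair cell markers were higher in both slide 2 samples, with list means of 7.94 and 7.22 on slide 1 and 9 and 9.54 on slide 2. Pdgfrb, a receptor of pericytes and fibroblasts, had log2 signals of 11.67, 12.01, 10.26 and 5.59 in the otosphere samples. Of the 10 contractile genes, 6 had their highest otosphere signal in OS6 and 4 in OS4/OS5. These shares were not worked out over all probes. The part of these cell types in the result was not tested.

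Whether other genes of the same machinery followed the 10 was asked of 4 lists, which were written with earlier results of these data known. Of their 62 genes, 61 were measured, and 19 passed an adjusted p of 0.05 between otospheres and CSE by limma with Benjamini-Hochberg adjustment over all probes, 15 higher and 4 lower. Over all probes, 4.84% were called higher and 6.19% lower. Of the 61 genes, 28 passed for otospheres against ESCs (23 higher, 5 lower, with 12.1% and 15.6% over all probes) and 15 for CSE against ESCs (10 higher, 5 lower, with 13.2% and 15.6%). Scaled to the 75th percentile, the splits against ESCs were 12 higher and 7 lower for otospheres, and 7 and 10 for CSE. With the otospheres of slide 1 alone, 11 of the 61 genes passed between otospheres and CSE, and 9 passed without CSE1, 10 without CSE3 and 11 without OS4/OS5.

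Of 12 genes for non-muscle counterparts of the contractile proteins, 7 were higher in otospheres than in CSE and none lower, with a median difference of 1.28. Tagln2, a transgelin of many cell types, rose by 3.35 (SE 0.48, limma adjusted p = 0.00266). Myh9, a non-muscle myosin heavy chain, rose by 2.02 (SE 0.33, limma adjusted p = 0.00499). Actn4, Tpm4, Myl12a, Myl6 and Myl12b also passed the test. The cytoplasmic actins did not, with differences of 0.21 for Actb and 0.12 for Actg1.

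Of 18 other smooth muscle contractile genes, 4 were higher in otospheres, 2 were lower and 12 did not pass, with a median of 0.31. Nexn, which encodes an actin-binding protein, rose by 2.94 (SE 0.71, limma adjusted p = 0.0311), and Actn1, an actin cross-linker, by 2.50 (SE 0.37, limma adjusted p = 0.00329). Pdlim7 and Flna were the other genes that rose. Itga8, an integrin subunit, fell by 2.78 (limma adjusted p = 0.00417) and Des, the intermediate filament desmin, fell by 1.95 (limma adjusted p = 0.0282), with Des above background on 2 of 6 otosphere arrays. Mylk, the kinase that phosphorylates the regulatory light chain, had a difference of -0.96 and Smtn one of -0.87, and neither passed. Lmod1 had 6.97 ± 1.11 (SD, n = 4) in otospheres and 5.85 ± 0.35 (n = 3) in CSE and did not pass. Kcnmb1 was not above background on any array.

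Of 17 measured regulators of smooth muscle genes, 1 was higher in otospheres, 1 was lower and 15 did not pass, with a median of 0.07. Srf had log2 signals of 10.44, 10.17, 11.10 and 11.13 in the otosphere samples and 10.36, 10.30 and 11.81 in CSE, a difference of -0.11 (SE 0.40). Its partners Mrtfa and Mrtfb differed by 0.07 and -0.18. Myocd, the partner restricted to cardiac and smooth muscle, was well above background on 1 of 6 otosphere arrays and on no CSE array. Fhl2, a LIM protein, rose by 0.97 (limma adjusted p = 0.0343), and Csrp2, another LIM protein, fell by 1.60 (limma adjusted p = 0.0455).

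**Figure D5:**
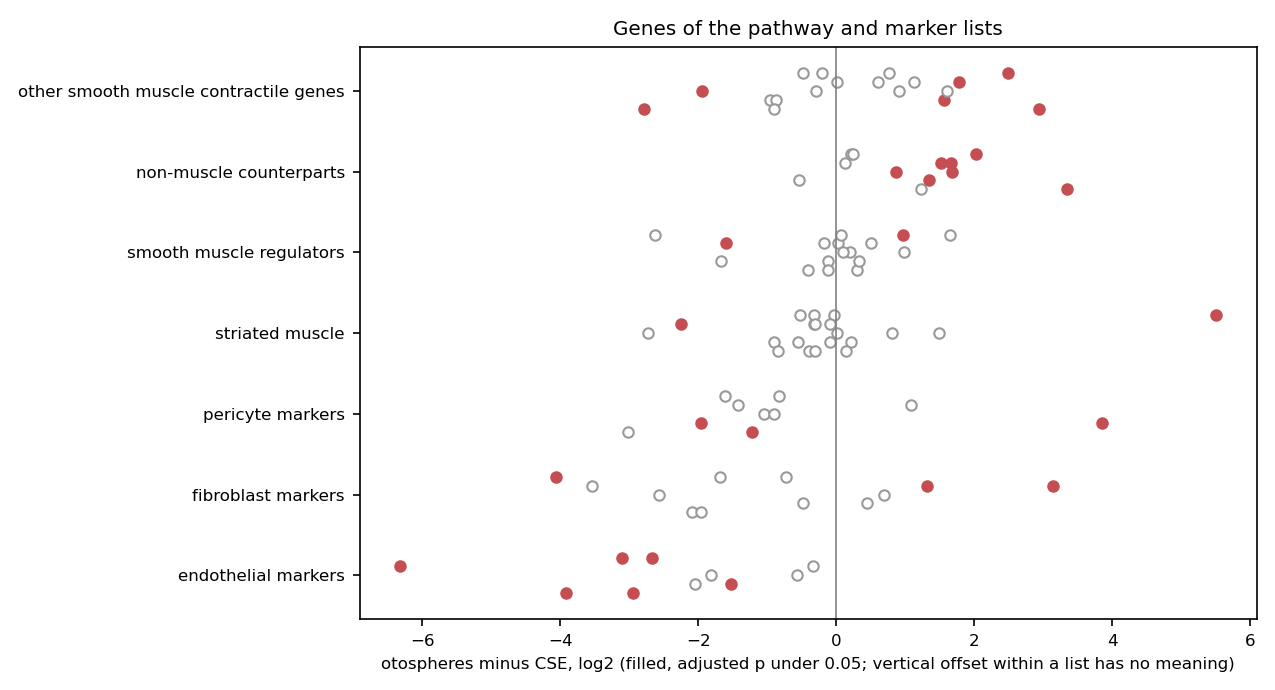
Difference between otospheres and CSE (log2) of each gene in 7 gene lists, filled red where the limma adjusted p was under 0.05. The non-muscle counterparts lie mostly to the right of 0 and the endothelial markers to the left, and Acta1 (5.51) and Rgs5 (3.85) stand far to the right of their lists.

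Lists of other cell types were read beside the 4.84% of all probes called higher and the 6.19% called lower in otospheres. Of 20 striated muscle genes, 1 rose and 1 fell, which is near these shares. Acta1, the skeletal muscle actin, had log2 signals of 10.63, 9.14, 13.10 and 13.60 in the otosphere samples and 5.76, 6.34 and 6.23 in CSE, and rose by 5.51 (SE 1.17, limma adjusted p = 0.0176), while Tnnt1 fell by 2.25. Whether the Acta1 probe also binds RNA of other actins was not tested. Of 10 pericyte markers, Rgs5 rose, and Higd1b and Kcnj8 fell. Rgs5, a regulator of G protein signalling, had 12.97, 13.57, 14.61 and 14.56 in the otosphere samples, 10.24, 10.06 and 9.94 in CSE, and rose by 3.85 (SE 0.38, limma adjusted p = 0.000518). It was not above background in either ESC line, unlike Acta2, Cnn1 and Tagln. Pdgfrb and Cspg4 did not pass, with -0.90 (SE 1.35) and -1.04 (SE 0.44). Of 12 fibroblast markers, Thy1 and Fn1 rose by 3.14 and 1.32 and Col1a1 fell by 4.06 (limma adjusted p = 0.0145). Of 10 endothelial markers 6 fell, including Cldn5 by 6.31 (limma adjusted p = 3.75e-05) and Esam, which was not above background on any otosphere array.

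The non-member genes whose profile over the 9 samples, centred on each gene's mean, came closest to a member were searched among 18537 genes. The other members were left out of this search, so their likeness to each other was not ranked. For Cnn1 they were Pmaip1 (root mean square difference 0.765 on the log2 scale), Slc7a3, Plaur, Acta1 and Krt17. For Acta2 they were Acta1 (0.618), Pmaip1, Trib3, Chac1 and Krt17, so 3 of 5 were shared. Hybridization between the probes and transcripts of Acta1 and Acta2, which are related actins, was not tested. Pmaip1 stood at 11.51 in otospheres, 5.28 in CSE and 10.63 in ESCs. The genes closest to Myh11 were as flat as Myh11 itself, with Inpp5b first (0.0596).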

How the data were processed

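The authors deposited scanner files with spot and local background intensities, not normalized between arrays, and a table of log2 values that they had background-corrected, quantile-normalized and filtered. Here limma 3.58.1 (R 4.3.3) was run on the median intensities, with normexp (offset 16), log2 and quantile normalization over 11 arrays. Control and outlier spots were removed and repeated spots averaged. Probes at least 10% above the 95th percentile of 308 negative controls on at least 2 arrays were kept (47996 of 55681). Of all probes, 26762 were named by transcript accession through a RefSeq table (GRCm38.p6). Each of the 3 groups had a mean in 1 limma model, and p-values were adjusted (Benjamini-Hochberg) over all kept probes, with a threshold of 0.05, tested on simulated data. The number of arrays limits the precision.

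The members and lists were chosen with earlier results of these data known. Genes named were the 10 members, up to 2 higher and 2 lower genes past the threshold in a list, and fixed genes (Srf, Myocd, Mrtfa, Mrtfb, Mylk, Smtn, Des, Lmod1, Actb, Actg1, Rgs5, Pdgfrb, Cspg4). The 5 non-member genes most like Cnn1, Acta2 and Myh11 were also named, and a few more after their values had been seen. A listed gene had its brightest kept probe. Between otospheres and CSE, further marker lists had these genes past the threshold: macrophages 1 higher and 3 lower of 7, Schwann cells 1 and 4 of 8, hair cells 0 and 4 of 8, supporting cells 0 and 8 of 8, ESCs 0 and 1 of 8. Over all probes, 4.84% were higher and 6.19% lower. The single genes of 1 pathway list are not reported here.

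Alternatives were the offset, scaling, filter, deposited table, probe rule, slide and replicate blocks, every array as a sample, the methods' test without empirical Bayes, and each replicate left out. Otospheres of 1 slide at a time were added after seeing the data.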

Additional observations from a re-analysis of the deposited data

How the results depend on the processing

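For the 10 genes, 30 differences were recomputed under 22 alternatives each, 660 values in all. Of these, 608 moved by less than the spread between replicates, 52 moved further, and 26 changed sign, each in a comparison whose samples overlapped. The median of the 10 genes between otospheres and CSE was 1.75 with the authors' table, in which Acta2 is scaled down, and 2.94 with the table's values multiplied by the number of spots. Against ESCs, the median of otospheres was 2.45 with the otospheres of slide 2 alone. The number of probes called between otospheres and CSE, 5292, was 7941 with every array as a sample, 3409 with the otospheres of slide 1 alone, and 2939 to 5918 with 1 replicate left out (2939 without CSE1, 3215 without CSE3 and 3454 without OS4/OS5). Of the 61 pathway genes, 19 were called between otospheres and CSE, against 9 in the methods' test without empirical Bayes, 11 with the otospheres of slide 1 alone, and 9 to 22 with 1 replicate left out. The replicate block, with every array as a sample, gave 12. The replicate numbers did not pair the samples (correlations of deviations of 0.357, -0.342 and -0.393 between otospheres and CSE), so this says nothing of a weaker effect. Over the other counts and medians of the 3 comparisons, no alternative that was run moved a total count by over 1.5 times or turned a median's direction, but scaling to the 75th percentile moved pathway genes higher in otospheres than in ESCs from 23 to 12, and those lower in CSE than in ESCs from 5 to 10. Signal over background limits Myh11, Actg2, and Cnn1 in CSE.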
